A study of Caenorhabditis elegans with 4 samples.

Results

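The genes described here are the flp and nlp genes of Caenorhabditis elegans, which encode the precursors of most of its neuropeptides. They were taken from the series table by symbol, as every gene named flp or nlp followed by a number, and 6 nlp genes (nlp-27, nlp-28, nlp-29, nlp-30, nlp-31 and nlp-34) were left out. This gave 100 genes, 31 flp and 69 nlp, among the 46934 genes of the table, and all 100 had at least 1 count. RNA depleted of ribosomal RNA was sequenced from whole synchronized adults grown at 20 °C on E. coli OP50, in 4 libraries of 2 groups. The eggd-1 group (2 libraries) is a null mutant of eggd-1, whose protein anchors germ granules around the nuclei of germ cells. The control group (2 libraries) has the genotype label pgl-1::RFP, a germ granule protein with a red fluorescent tag, and the series text calls it wild type. The labels do not say whether the mutant carries the tag, so effects of the tag and of eggd-1 cannot be told apart. Each sample pooled about 50000 worms. The sample titles speak of sequencing replicates and the methods of biological ones, so p-values may measure technical spread.

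The library totals lay between 17603513 and 18707358 counts in eggd-1 and were 20223368 and 30812591 in the control. The targeted gene, listed as mip-1 (WBGene00008005), had 6 and 3 counts in eggd-1, against 2074 and 3177 counts in the control, which follows the labels. Values below are normalized counts, that is, expected counts per gene divided by a DESeq2 size factor of the library. A gene is said to have risen or fallen where the DESeq2 adjusted p was under 0.05, with fold changes given as log2 of eggd-1 over control.

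Neuropeptides are cut from longer precursor proteins, packed into dense core vesicles and released to act mainly on G protein-coupled receptors. The flp genes encode FMRFamide-like peptides, which end in an arginine and an amidated phenylalanine. The nlp genes are a mixed group of other peptide precursors, some of them made in the intestine or the epidermis and not in neurons. Many of these peptides modulate feeding, egg laying, locomotion, mating and sleep in the worm.

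Some neuropeptide genes were higher in eggd-1 worms and very few were lower. Of the 94 flp and nlp genes with an adjusted p, 22 rose (23.4%) and 2 fell (2.13%), nlp-24 and nlp-36. Over all rows tested, 18.6% rose and 20.4% fell, so the share of rises was near that of all genes and the share of falls was below it. The remaining 70 genes did not pass the test and 6 received no adjusted p. Among the 22 that rose, 6 were at least 2-fold higher.

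The direction was shared more widely than the calls. Over the 88 genes averaging 10 or more normalized counts, the median log2 fold change was 0.43, with quartiles of 0.19 and 0.72, and it was -0.01 over all rows with that minimum. A positive log2 fold change was found for 74 of the 88 genes (84.1%), against 49.6% of all rows. Both eggd-1 libraries lay above both control libraries in 58 of them (65.9%, background 38.7%) and below both in 10 (11.4%, background 40.4%), and the groups overlapped in 20. After centring each gene on its mean, the median over the 88 genes was 0.33 and 0.11 in the eggd-1 libraries, against -0.17 and -0.26 in the control libraries, with an SD of 0.12 within groups. Both eggd-1 libraries were therefore above both control libraries, with eggd-1 replicate 1 the higher of its pair. Since the RNA came from whole animals, more cells of a type, or fewer, cannot be told apart from more or less RNA per cell.

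**Figure D1:**
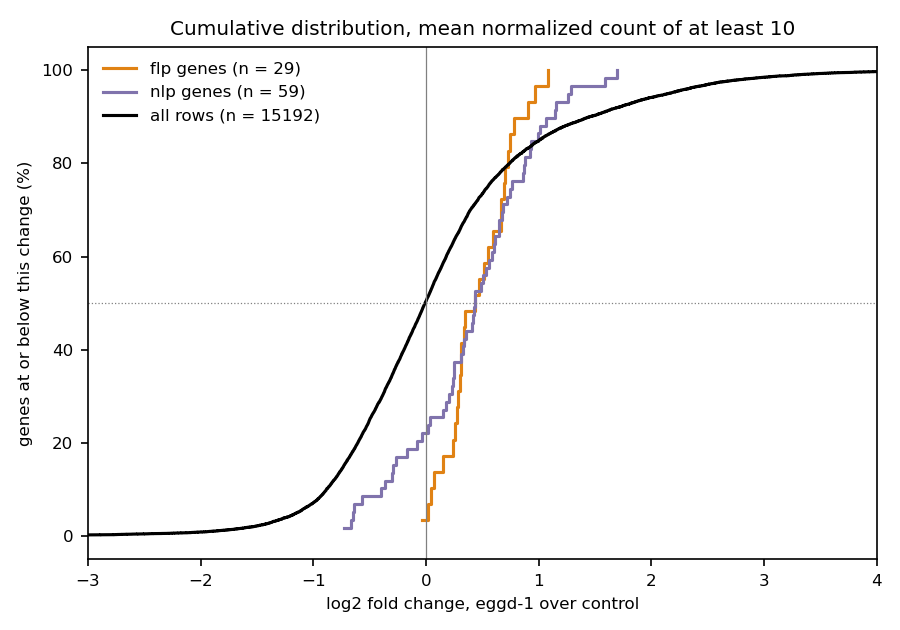
Cumulative distribution of the log2 fold change (eggd-1 over control, horizontal axis) for flp genes, nlp genes and all rows, each averaging 10 or more normalized counts, and the percentage of genes at or below each value on the vertical axis. The flp and nlp curves cross 50% near their medians of 0.44 and 0.43, to the right of the curve of all rows at -0.01.

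The calls depended on the libraries and on the scaling. With 1 library left out, most of the 22 calls were lost, and rises were fewer over all rows as well. The median over the 88 genes was then 0.48 (without control replicate 1), 0.40 (without control replicate 2), 0.32 (without eggd-1 replicate 1) and 0.56 (without eggd-1 replicate 2). Over all rows it was -0.027 to -0.015. The 22 genes had a positive log2 fold change in each of these fits. Those called in all 4 were nlp-13 and nlp-67, and those called in 3 were nlp-14, nlp-16 and nlp-71. Neither nlp-24 nor nlp-36 was called without eggd-1 replicate 1. The 22 genes had been selected as higher in these same libraries, so their signs with a library left out were partly fixed in advance. When the size factors were estimated on 15 pan-neuronal genes alone, all log2 fold changes moved by -0.32. The split was then 6 rises (nlp-13, nlp-14, nlp-16, nlp-39, nlp-67 and nlp-71) to 5 falls (nlp-24, nlp-33, nlp-36, nlp-40 and nlp-77). Over all rows, 1917 rose and 5860 fell with this scaling. The other 16 flp and nlp rises lost their calls with it, and the median was 0.12 for the 88 genes and -0.33 for all rows. The edgeR quasi-likelihood test called 39 rises (43.8% of 89 genes, background 29.8%) and 2 falls (2.25%, background 28.1%).

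The medians of the families were close. Of the flp genes, 8 rose (26.7%, background 18.6%) and 0 fell (background 20.4%) in DESeq2, with a median of 0.44 over 29 genes. No flp gene was lower at an unadjusted p under 0.05 either, and edgeR called 0. Of the nlp genes, 14 rose (21.9%) and 2 fell (3.12%), with a median of 0.43 over 59 genes and a wider range, -0.73 to 1.69. The shares of rises were thus near that of all rows and the shares of falls below it. In the flp family 21 of 29 genes had both eggd-1 libraries above both control libraries and 0 had them below, against 37 and 10 of 59 in the nlp family. Over all rows with that minimum, 38.7% lay above and 40.4% below. The difference between the families was not tested.

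**Figure D2:**
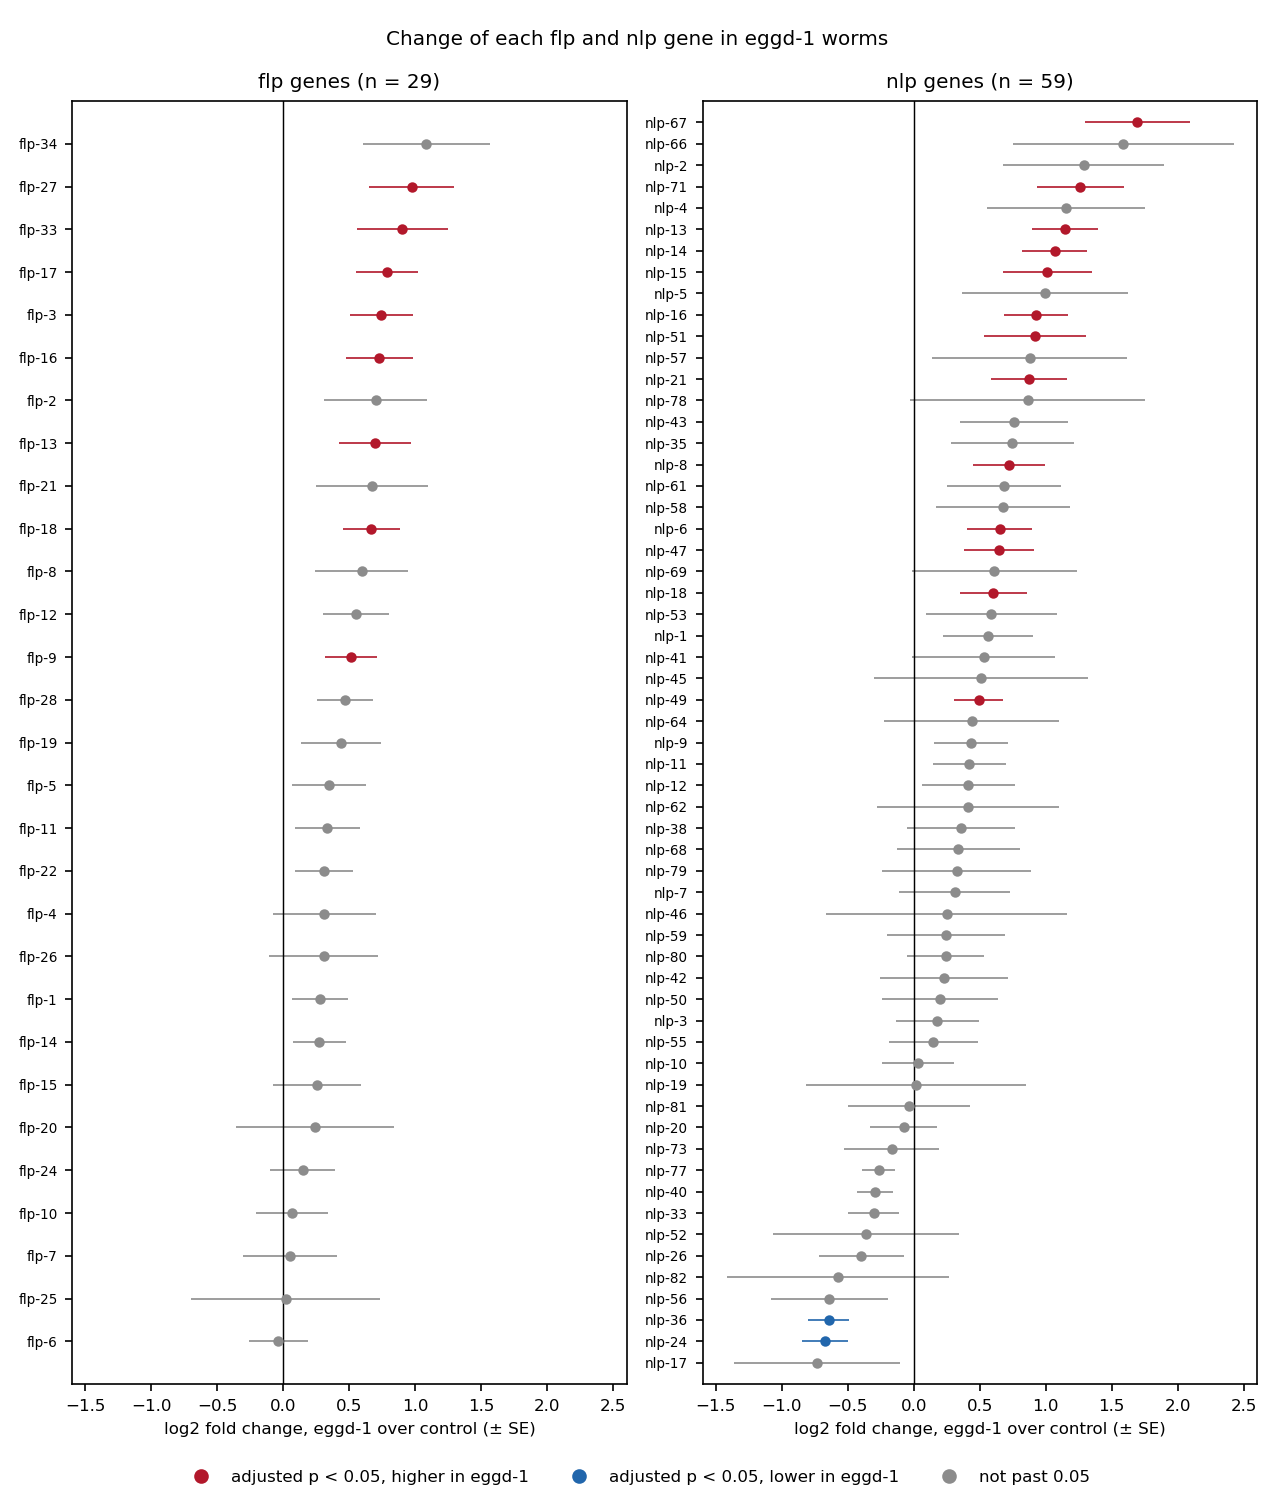
Log2 fold change (eggd-1 over control, horizontal axis) with its standard error for the 29 flp genes (left) and the 59 nlp genes (right) that averaged 10 or more normalized counts, ordered by size, with genes that rose in red, genes that fell in blue and others in grey. Of the flp genes 28 lie right of 0, and the falls are nlp-24 and nlp-36 alone.

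The largest rises were in nlp genes. The genes named here and below for their change were picked for groups that do not overlap, so that trait is not a result. The gene nlp-67 (WBGene00011227, WBcel235 chromosome X, 16184369 to 16185722, plus strand) had 91.7 and 94.2 normalized counts in eggd-1, against 27.3 and 30.0 in the control. Its replicates were close and its groups far apart, with a log2 fold change of 1.69 (SE 0.40, DESeq2 adjusted p = 0.00014). The gene nlp-71 (WBGene00022254, chromosome IV, 6409557 to 6413582, minus strand) had 137 and 124 in eggd-1 and 56.7 and 52.2 in the control. It rose by 1.26 on the log2 scale (SE 0.33, DESeq2 adjusted p = 0.00058). The gene nlp-13 (WBGene00003751, chromosome V, 4236418 to 4238056, plus strand) had 246 and 273 in eggd-1 and 102 and 131 in the control. It rose by 1.15 (SE 0.25, DESeq2 adjusted p = 3.55e-05), the smallest adjusted p of the 100 genes.

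The gene nlp-14 (WBGene00003752, chromosome X, 8917423 to 8919423, minus strand) encodes peptides of the ALA neuron, which acts in the sleep that follows cellular stress. It had 336 and 278 normalized counts in eggd-1, against 120.5 and 171 in the control. Both pairs of replicates were spread, yet the groups stayed apart at a log2 fold change of 1.07 (SE 0.25, DESeq2 adjusted p = 0.000114). The gene nlp-15 (WBGene00003753, chromosome I, 12988231 to 12995475, plus strand) had 163.6 and 139.9 normalized counts per kb of exon in eggd-1 and 73.6 and 76.95 in the control. It rose by 1.01 (SE 0.34, DESeq2 adjusted p = 0.00958), and no fit with a library left out called it. The gene nlp-16 (WBGene00003754, chromosome IV, 6255049 to 6259832, minus strand) had 233 and 269 in eggd-1 and 135 and 129 in the control. It rose by 0.93 (SE 0.24, DESeq2 adjusted p = 0.000633).

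Among the flp genes that passed the test, the largest change was that of flp-27 (WBGene00016114, chromosome II, 5681003 to 5682667, plus strand), with 115 and 136 normalized counts in eggd-1 and 68.8 and 59.3 in the control. It rose by 0.97 (SE 0.32, DESeq2 adjusted p = 0.00936). The gene flp-33 (WBGene00011586, chromosome I, 12624234 to 12625238, minus strand) had 109 and 97.8 in eggd-1 and 53.6 and 57.2 in the control. It rose by 0.90 (SE 0.34, DESeq2 adjusted p = 0.0257). The peptides of flp-17 are made in the carbon dioxide-sensing BAG neurons and inhibit egg laying through the receptor EGL-6. The gene (WBGene00001460, chromosome IV, 17190204 to 17191891, minus strand) had 272 and 238 in eggd-1 and 147 and 149 in the control, a log2 fold change of 0.79 (SE 0.23, DESeq2 adjusted p = 0.00341). Peptides of flp-3, known for a part in the response of males to a pheromone, come from a gene on chromosome X (WBGene00001446, 10091946 to 10092964, minus strand). It had 271 and 223 in eggd-1 and 145 and 150.1 in the control, a log2 fold change of 0.74 (SE 0.24, DESeq2 adjusted p = 0.00736).

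In nlp-51 and nlp-21 the eggd-1 replicates were more spread than those of the control. The gene nlp-51 (WBGene00011997, chromosome II, 11319223 to 11319691, minus strand) had 72.9 and 99.1 normalized counts in eggd-1 and 49.6 and 41.5 in the control, a log2 fold change of 0.92 (SE 0.39, DESeq2 adjusted p = 0.0444). The gene nlp-21 (WBGene00003759, chromosome III, 11388624 to 11393262, minus strand) had 146 and 209 in eggd-1 and 96.2 and 97.2 in the control, a log2 fold change of 0.87 (SE 0.29, DESeq2 adjusted p = 0.0089). In both, eggd-1 replicate 2 was the higher one.

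The falls were both in abundant nlp genes. The gene nlp-24 (WBGene00003762, chromosome V, 11616376 to 11616828, plus strand), whose peptides act as opioid-like regulators of feeding, had 708 and 882 normalized counts in eggd-1, against 1417 and 1113 in the control. It fell by 0.67 on the log2 scale (SE 0.17, DESeq2 adjusted p = 0.000653), with a broad spread in each group. The gene nlp-36 (WBGene00007185, chromosome III, 9488731 to 9489186, plus strand) had 603 and 623 in eggd-1 and 1009 and 909 in the control. It fell by 0.65 (SE 0.16, DESeq2 adjusted p = 0.000234), and its eggd-1 replicates were close together.

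**Figure D3:**
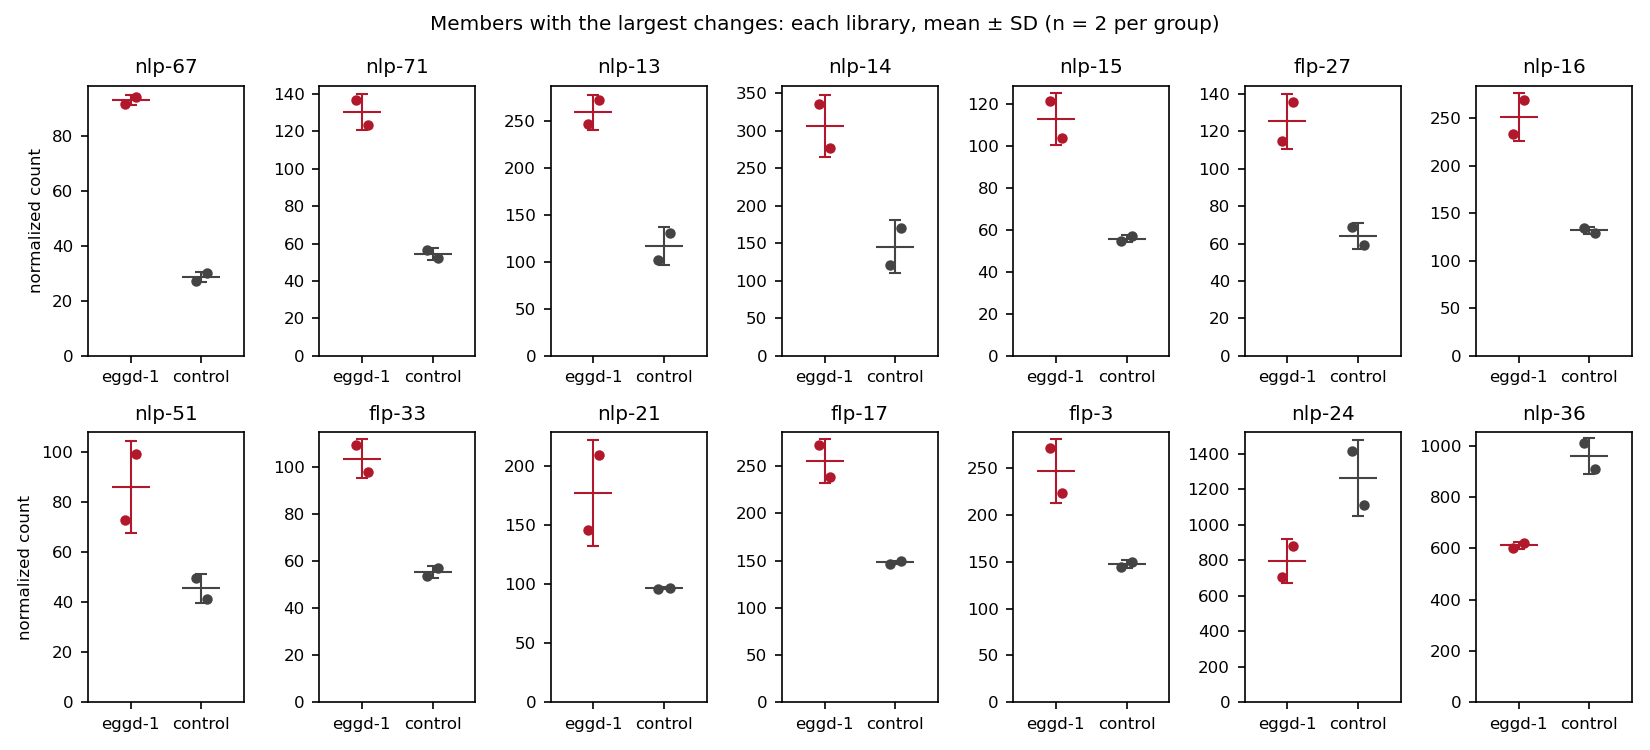
Normalized counts (vertical axis from 0, its own scale in each panel) in each library of the 12 genes that rose most and the 2 that fell, with eggd-1 in red left of control in grey, and the mean with its SD (n = 2 per group). No panel has overlapping groups, since the genes were picked by that rule. The gap was 72.9 against 49.6 in nlp-51 and 882 against 1113 in nlp-24.

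At the 4-fold limit that the study applied to its own list, 1 of the genes was called, nlp-39 (WBGene00008295, chromosome I, 12461656 to 12461895, plus strand), and 0 were called lower in DESeq2, at an unadjusted p or in edgeR. Over all rows, 5.67% were called higher at this limit and 0.763% lower. The gene nlp-39 was singled out after its values were seen. It had 15 and 14 counts in eggd-1 and 1 and 0 counts in the control. The ratio was 40.2 with an exact 95% interval of 6.66 to 1640, which covers counting error only (DESeq2 adjusted p = 0.00529). With a library left out it received no adjusted p, with fitted log2 fold changes of 4.04 to 6.99, which at such counts are no bound.

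The 100 genes differed widely in level. Per kilobase of exon, nlp-77 (WBGene00015514, chromosome II, 7790591 to 7791375) stood first, with 8098 and 8629 normalized counts per kb in eggd-1 and 9422 and 10700 in the control. After it came nlp-24 with 1878 and 2339 per kb in eggd-1 and 3759 and 2951 in the control, nlp-40, nlp-36 and nlp-33. The peptide of nlp-40 is released by the intestine to time defecation through the receptor AEX-2 on GABA neurons, and the gene had 2024 and 2203 per kb in eggd-1, against 2660 and 2515 in the control. The gene nlp-36 had 1714 and 1769 per kb in eggd-1, against 2867 and 2582 in the control. The gene nlp-33, an antimicrobial-type peptide gene induced in the epidermis by infection, had 1175 and 981 per kb in eggd-1, against 1418 and 1249 in the control.

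All 5 of these genes had both eggd-1 libraries below both control libraries, as did 40.4% of all rows averaging 10 or more normalized counts. For nlp-77 it came to -0.27 on the log2 scale (SE 0.13, DESeq2 adjusted p = 0.0821), for nlp-40 it was -0.29 (SE 0.14, DESeq2 adjusted p = 0.0748) and for nlp-33 it was -0.30 (SE 0.19, DESeq2 adjusted p = 0.207), none past the threshold. With pan-neuronal scaling all 3 were called lower (DESeq2 adjusted p = 1.16e-05, 4.4e-05 and 0.00352). That scaling moved every gene by -0.32 and gave 5860 falls over all rows, against 3426 in the main fit. It was set by neuronal genes, while nlp-40 was described above as intestinal and nlp-33 as epidermal. Without control replicate 1 the log2 fold change of nlp-77 was -0.37. The remaining genes among the first 10 per kb lay on the other side. The gene nlp-49 encodes a ligand of the receptor SEB-3, which acts in arousal and stress. It had 867 and 756 per kb in eggd-1 and 579 and 576 in the control, and it rose by 0.49 (SE 0.18, DESeq2 adjusted p = 0.0229). The gene flp-9 had 827 and 669 per kb in eggd-1 and 499 and 549 in the control, and rose by 0.51 (SE 0.19, DESeq2 adjusted p = 0.0244). The genes flp-28, flp-22 and flp-14 had log2 fold changes of 0.47, 0.31 and 0.27, with DESeq2 adjusted p-values of 0.0669 to 0.29. Scaled to the pan-neuronal genes, those of flp-22 and flp-14 turned to -0.01 and -0.05, and nlp-49 and flp-9 were no longer called (DESeq2 adjusted p = 0.475 and 0.437).

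**Figure D4:**
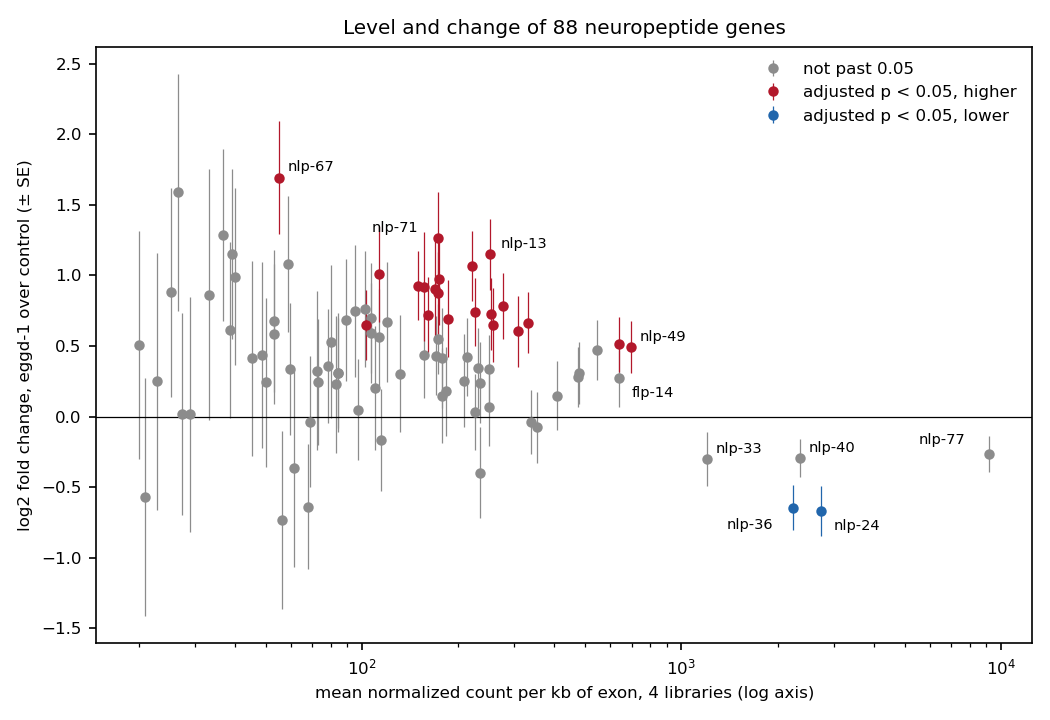
Log2 fold change (eggd-1 over control, with SE, vertical axis) against the mean normalized count per kb of exon over the 4 libraries (log axis) for the 88 genes with a mean of at least 10. The 5 genes with the highest levels, nlp-77, nlp-24, nlp-40, nlp-36 and nlp-33, all lie below 0, and nlp-49 and flp-14 follow above it.

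The few abundant genes set much of the total. The share of nlp-77 in the summed normalized counts of the 100 genes was 26.8% and 28.9% in eggd-1, against 32.3% and 37.1% in the control. The 5 genes together took 43.5% and 47.1% in eggd-1, against 58.7% and 60.6% in the control, and the sum of the other 95 was 10670 and 9886 in eggd-1, against 7547 and 7129 in the control. The sum over all 100 genes moved less, to 18900 and 18700 in eggd-1, against 18260 and 18080 in the control. For the flp genes alone it was 5475 and 4987 in eggd-1, against 4007 and 3711 in the control.

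Split by mean normalized count, the median log2 fold change was -0.29 for the 7 genes at 400 or more, with 2 rises and 2 falls (28.6% each). The 29 genes between 100 and 400 had a median of 0.47 with 13 rises (44.8%), and the 52 between 10 and 100 had a median of 0.43 with 6 rises (11.5%). Over all rows at any level 18.6% rose and 20.4% fell. Shares of all rows at these levels were not computed, so the counts per class cannot be set against them. Precision fell with the level, from a median SE of 0.25 in the middle class to 0.46 in the next. Several genes with low counts had large estimates that did not pass the test, among them nlp-66 at 1.59 (SE 0.84), nlp-2 at 1.29 (SE 0.61), nlp-4 at 1.15 (SE 0.60) and flp-34 at 1.08 (SE 0.48). Each had no overlap between groups, a trait common over all rows (38.7% above and 40.4% below). On the other side, nlp-17 was at -0.73 (SE 0.63).

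A further 12 genes had a mean under 10 and support little. Those with no adjusted p were flp-23, nlp-22, nlp-23, nlp-32, nlp-60 and nlp-63. The gene nlp-22, which acts in the sleep of larval moults, had 0 counts in both eggd-1 libraries, against 1 and 0 in the control, and nlp-32 had 0 and 0 in eggd-1, against 0 and 1 in the control. Since 0 counts can stand for as many as 3, no difference was detectable for either at this depth. In nlp-25 there were 11 and 7 counts in eggd-1, against 1 and 2 in the control, a ratio of 8.31 (exact 95% interval 2.43 to 44.1, counting error only, DESeq2 adjusted p = 0.0643).

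Sleep peptides were examined as a group of 7 genes. Of these 3 rose (50% of the 6 with an adjusted p) and 0 fell in DESeq2, at an unadjusted p and in edgeR, where 18.6% (DESeq2) and 29.8% (edgeR) of all rows rose, and the median was 0.51 over the 6 with enough counts. Besides nlp-14, flp-13 and nlp-8 rose, both of which act with it in the ALA neuron. The gene flp-13 had 164 and 186 normalized counts in eggd-1 and 113 and 103 in the control, a log2 fold change of 0.69 (SE 0.27, DESeq2 adjusted p = 0.0292). The gene nlp-8 had 177 and 162 in eggd-1 and 104.3 and 102 in the control, a log2 fold change of 0.72 (SE 0.27, DESeq2 adjusted p = 0.0245). Neither had overlapping groups, a trait common over all rows (38.7% above and 40.4% below). The ALA peptide gene flp-24 had 209 and 174 in eggd-1 and 177 and 169 in the control, so that its groups overlapped at a log2 fold change of 0.15 (SE 0.25), which turned to -0.17 with pan-neuronal scaling. The gene flp-11, the main sleep peptide of the RIS neuron, had 209 and 206 in eggd-1 and 149.8 and 178 in the control, a log2 fold change of 0.33 (SE 0.24, DESeq2 adjusted p = 0.284). The gene nlp-42 had 37.6 and 41.6 in eggd-1 and 32.4 and 35.0 in the control (0.23, SE 0.49). With 1 library left out most of these calls were lost, and the median was 0.47 to 0.53. With pan-neuronal scaling 1 rose, since flp-13 and nlp-8 lost their calls (DESeq2 adjusted p = 0.274 and 0.24).

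Egg-laying peptides showed 1 rise among 5 genes (20%, background 18.6%), flp-17. The gene flp-10, whose peptides share the receptor EGL-6 with those of flp-17, had 184 and 164 normalized counts in eggd-1 and 199 and 135 in the control. Its groups overlapped and its log2 fold change was 0.07 (SE 0.27), negative in some of the fits with a library left out. The gene nlp-3, which promotes egg laying from the HSN neurons, had 103 and 99.1 in eggd-1 and 92.1 and 86.5 in the control, a log2 fold change of 0.18 (SE 0.31). The gene nlp-7 had 53.03 and 59.9 in eggd-1 and 50.6 and 40.7 in the control (0.31, SE 0.42). In contrast, egl-6, the receptor gene for the flp-10 and flp-17 peptides, fell. It had 85.1 and 83.2 normalized counts in eggd-1 and 180.2 and 142 in the control, a log2 fold change of -0.93 (SE 0.30, DESeq2 adjusted p = 0.00631), and among 95 peptide receptor genes with an adjusted p it was the single one that fell.

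Of 4 locomotion peptide genes, flp-18 rose (25%, background 18.6%), with 383 and 408 normalized counts in eggd-1 and 289.5 and 212 in the control. Its peptides act on the receptors NPR-4 and NPR-5 in feeding, fat and movement. This was a log2 change of 0.67 (SE 0.22, DESeq2 adjusted p = 0.00731), with the control replicates more spread than those of eggd-1. The gene flp-1, which acts from the AVK neurons, had 370.1 and 345 in eggd-1 and 337 and 254 in the control. At a log2 fold change of 0.28 (SE 0.21, DESeq2 adjusted p = 0.304) it did not pass the test. The gene nlp-12, a cholecystokinin-like peptide gene of the stretch-sensing DVA neuron, had 105 and 74.6 in eggd-1 and 67.8 and 67.2 in the control (log2 change 0.41, SE 0.35).

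Feeding and gut peptides gave shares near those of all rows. Among 5 genes flp-18 rose (20%, background 18.6%) and nlp-24 fell (20%, background 20.4%), and the median was 0.05. The gene flp-21, a ligand of the receptor NPR-1 that controls aggregation and foraging, had 77.3 and 53.8 normalized counts in eggd-1 and 36.4 and 45.7 in the control. The log2 difference of 0.67 (SE 0.42, DESeq2 adjusted p = 0.208) did not pass the test. The fat-regulating flp-7 had 81.8 and 67.3 in eggd-1 and 69.8 and 74.3 in the control, with overlapping groups and a log2 fold change of 0.05 (SE 0.36).

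The peptide genes of male turning (flp-8, flp-10, flp-12 and flp-20), which act when a male circles its mate and are also expressed in hermaphrodites, gave 0 rises and 0 falls in DESeq2. At an unadjusted p under 0.05 there was 1 higher gene, and edgeR called 2 higher (background 29.8%). The gene flp-12 had 216 and 201 normalized counts in eggd-1 and 155 and 131 in the control (log2 change 0.55, SE 0.25, DESeq2 adjusted p = 0.0653). The gene flp-8 had 97.2 and 86.8 in eggd-1 and 53.6 and 67.9 in the control (0.59, SE 0.35). The gene flp-20 had 28.7 and 25.7 in eggd-1 and 29.4 and 17.1 in the control, with overlap (0.24, SE 0.60).

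The epidermal glycine-rich genes did not share 1 direction. Of 5 genes (nlp-24, nlp-25, nlp-26, nlp-32 and nlp-33), 1 fell (25% of the 4 with an adjusted p, background 20.4%) and 0 rose in DESeq2, with 1 higher at an unadjusted p (nlp-25) and 0 in edgeR. The 3 with enough counts, nlp-24, nlp-26 and nlp-33, each had both eggd-1 libraries below both control libraries (background 40.4%), with a median of -0.40. In nlp-26 there were 78.4 and 79.5 normalized counts in eggd-1, against 110.3 and 97.9 in the control (-0.40, SE 0.32). Related antimicrobial-type genes of the same family are among the 6 genes left out by the rule. Without these 5 genes, a choice made after seeing the data, the counts were 22 rises and 1 fall and the median was 0.44.

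By position, 31 of the 100 genes are on chromosome X, and their median log2 fold change was 0.55 over 27 genes, against 0.34 over the 61 on other chromosomes. All rows on X had a median of 0.16 and those elsewhere -0.04. Of the genes on X, 6 rose and 0 fell in DESeq2, 0 were lower at an unadjusted p and 0 in edgeR. The rises were 20.7% of those with an adjusted p, against 20.6% of all rows on X, while falls made up 10.1% of those rows. Off X there were 16 rises (24.6%, against 18.3% of all rows off X) and 2 falls (3.08%, against 22.1%). At a cluster on X, flp-28, flp-3 and flp-2 lie in a row on the minus strand with gaps of 3979 and 1465 bases. Their log2 fold changes were 0.47 (SE 0.21), 0.74 (SE 0.24) and 0.70 (SE 0.39), and only flp-3 rose. In a second row of 4 genes on X, nlp-45 and nlp-2 were at 0.51 (SE 0.81) and 1.29 (SE 0.61), neither past the threshold. Between them, nlp-22 and nlp-23 had too few counts to tell. Whether neighbours move alike was not tested.

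The deposited table also assigns genes to classes of small RNA targets and of germline expression. None of these classes was given for 90 of the 100 genes (46.6% of all rows with an adjusted p). The spermatogenic class held 4% of them, flp-6, flp-10, nlp-4 and nlp-9, against 13.8% of those rows, and 0 were oogenic. The MUT16 and PRG1 classes held the same 6 genes, flp-16, nlp-12, nlp-40, nlp-52, nlp-62 and nlp-81, of which flp-16 rose, with 212 and 197 normalized counts in eggd-1 and 133 and 115 in the control (log2 change 0.73, SE 0.25, DESeq2 adjusted p = 0.014).

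Most of the enzymes that cut and finish peptides passed the test. Of 11 processing genes 7 rose (63.6%, background 18.6%) and 0 fell in DESeq2, with a median of 0.59. At an unadjusted p, and in edgeR, 2 of the 11 were lower, pamn-1 and kpc-1. The gene egl-3, the proprotein convertase that makes the first cuts in most precursors, had 3467 and 3460 normalized counts in eggd-1, against 1106 and 1426 in the control. With no overlap and a log2 fold change of 1.45 (SE 0.15, DESeq2 adjusted p = 2.38e-20), it moved more than all but nlp-67 of the precursor genes with a call and a mean of at least 10. The gene egl-21, the carboxypeptidase of the next step, had 2003 and 1841 in eggd-1 and 901 and 1121 in the control (0.93, SE 0.15, DESeq2 adjusted p = 2.79e-08). The amidating enzymes pghm-1 and pgal-1 rose by 1.16 and 0.59, whereas pamn-1, which joins both amidating activities in 1 protein, was at -0.38 (SE 0.17, DESeq2 adjusted p = 0.0668). The convertase chaperone sbt-1 had 872 and 833 in eggd-1 and 727 and 630.3 in the control (0.33, SE 0.16, DESeq2 adjusted p = 0.0857). With 1 library left out some calls were lost in most of the fits, and the median was 0.505 to 0.67. With pan-neuronal scaling 4 rose and 2 fell.

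Genes of the dense core vesicle moved in both directions. Among 18, 5 rose (27.8%, background 18.6%) and 3 fell (16.7%, background 20.4%), with a median of 0.12. With pan-neuronal scaling the median turned to -0.19 (-0.33 over all rows), with 4 rises and 8 falls (1917 and 5860 over all rows). The gene ida-1, a membrane protein of these vesicles, had 1543 and 1481 normalized counts in eggd-1, against 581 and 748 in the control (log2 change 1.18, SE 0.16, DESeq2 adjusted p = 8.69e-12). The gene unc-31, which primes them for release, had 336 and 318 in eggd-1 and 176 and 172 in the control (0.91, SE 0.22, DESeq2 adjusted p = 0.000152). The maturation genes cccp-1 and rund-1 each rose by 1.04 and the vesicle motor unc-104 by 0.45. The genes that fell are also used in other trafficking in most cells. They were vps-51 at -0.65, eipr-1 at -0.60 and rab-10 at -0.40.

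Of 7 genes for peptide breakdown 5 rose (71.4%, background 18.6%) and 0 fell in DESeq2 and in edgeR, with 1 lower at an unadjusted p, and the median was 0.78. These are neprilysin-type peptidases. The gene nep-22 rose by 1.09 (SE 0.17), nep-11 by 0.99, nep-21 by 0.87, nep-2 by 0.78 and nep-17 by 0.34. With 1 library left out some of these calls were lost in most of the fits, and the median was 0.71 to 0.83. With pan-neuronal scaling 3 rose and 1 fell. Peptide genes outside the flp and nlp families gave 3 rises (37.5%, background 18.6%; 2 rises with pan-neuronal scaling) and 0 falls among 8 in DESeq2, with 0 lower at an unadjusted p and in edgeR, and a median of 0.89. The gene pdf-1, a pigment-dispersing factor of roaming behaviour, had 526 and 454 normalized counts in eggd-1 and 268 and 251 in the control (0.92, SE 0.19, DESeq2 adjusted p = 1.66e-05). Its relative pdf-2 rose by 0.86 and snet-1 by 0.91. The vasopressin- and oxytocin-like ntc-1 had 20.99 and 17.1 in eggd-1 and 13.2 and 7.15 in the control (0.93, SE 0.78).

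Peptide receptors had low counts and few calls. Of 105 genes 95 had an adjusted p, 7 rose (7.37%, background 18.6%) and 1 fell (1.05%, background 20.4%), so both shares were below those of all rows. Over the 80 with enough counts the median was 0.56. Both eggd-1 libraries were above both control libraries in 53 of the 80 (background 38.7%) and below both in 8 (background 40.4%). The largest rise was that of npr-6, with 47.5 and 31.8 normalized counts in eggd-1 and 11.1 and 11.4 in the control (log2 change 1.81, SE 0.61, DESeq2 adjusted p = 0.0105). The others that rose were npr-40 at 1.73, frpr-9 at 1.50, npr-23 at 1.17, npr-28 at 1.03, gnrr-4 at 1.00 and seb-2 at 0.72. The AEX-2 receptor gene of the NLP-40 peptide had 22.1 and 14.7 in eggd-1 and 22.3 and 6.43 in the control, with overlap, and npr-1 had 7.73 and 8.56 in eggd-1 and 6.07 and 4.29 in the control. Most receptor calls were lost with 1 library left out, when rises were fewer over all rows as well, and the median was then 0.49 to 0.59. Pan-neuronal scaling gave 2 rises and 3 falls (1917 and 5860 over all rows). Of the 105 receptor genes edgeR called 30 higher and 4 lower, where 29.8% and 28.1% of all rows it tested were called. The number of receptors it tested was not counted, so these shares cannot be set side by side exactly.

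**Figure D5:**
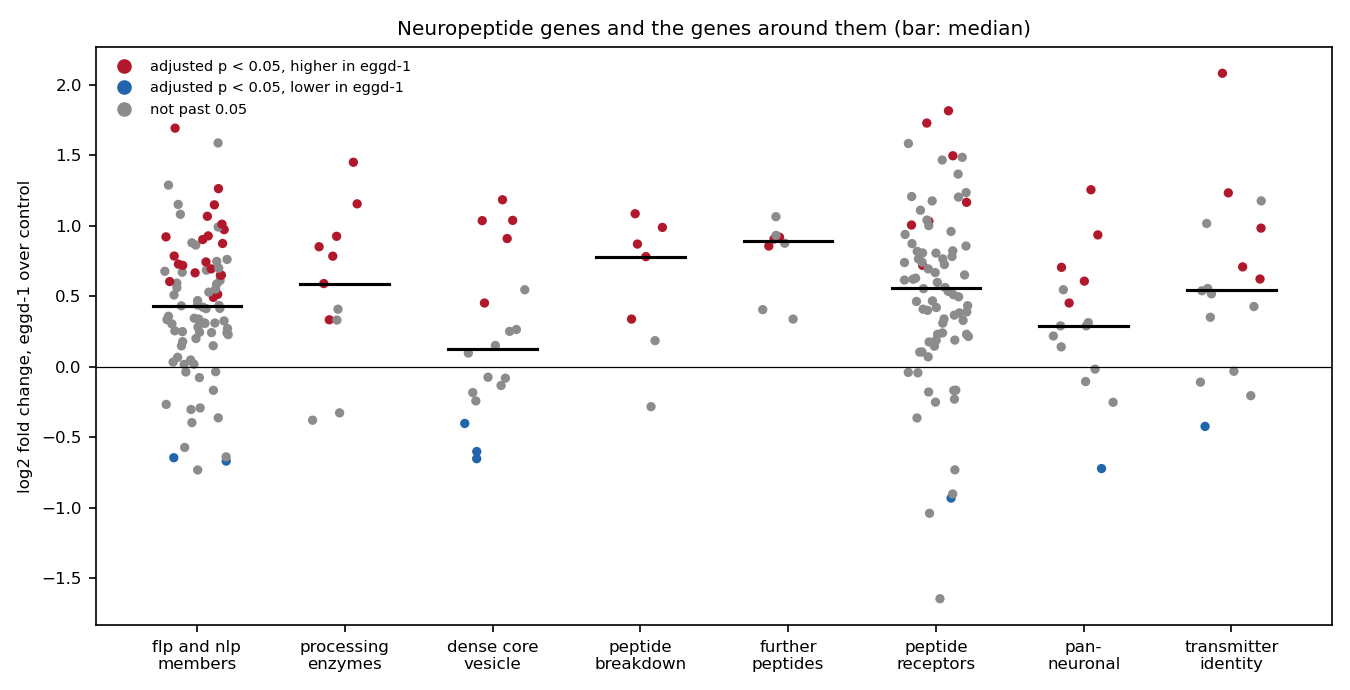
Log2 fold change (eggd-1 over control, vertical axis) of each gene that averaged 10 or more normalized counts, by group: the flp and nlp genes, 6 groups of genes around them and the peptide receptors, coloured by call, with the median as a bar. The medians run from 0.12 for dense core vesicle genes (-0.19 with pan-neuronal scaling) to 0.89 for the further peptide genes, and 0.43 for the flp and nlp genes lies between them.

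Markers of neurons and of other tissues moved as well. Of 15 pan-neuronal genes 5 rose (33.3%, background 18.6%) and 1 fell (6.67%, background 20.4%), with a median of 0.29. Their summed normalized counts were 10150 and 10500 in eggd-1, against 9157 and 9568 in the control. The synaptic vesicle GTPase rab-3 had 148 and 131 in eggd-1 and 109 and 118.6 in the control (0.29, SE 0.28), whereas unc-119, required for axon development, fell to 193 and 170 in eggd-1, against 295 and 305 in the control (-0.72, SE 0.22, DESeq2 adjusted p = 0.00435). Of 16 genes of transmitter identity 5 rose (31.2%, background 18.6%) and 1 fell (6.25%, background 20.4%), with a median of 0.55. Their summed normalized counts went the other way, with 9450 and 9720 in eggd-1, against 11400 and 10850 in the control. The largest rise was in the serotonin synthesis gene tph-1 (25.4 and 26.9 in eggd-1 and 5.06 and 7.15 in the control, log2 change 2.08, SE 0.77, DESeq2 adjusted p = 0.0203). The fall was in tdc-1, of tyramine synthesis, at -0.42.

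Outside neurons, all 4 pharynx muscle genes rose (median 1.18), as did 4 of 5 body muscle genes (0.81), 3 of 5 germ line genes (0.52) and all 6 sperm genes (1.83). The summed counts of the sperm genes were 1438 and 1163 in eggd-1, against 353 and 447 in the control, and those of pharynx muscle 34170 and 34380 in eggd-1, against 9915 and 12340 in the control. For all these lists the background was 18.6% rises and 20.4% falls. Epidermal genes gave 2 rises of 6 (33.3%), dpy-5 at 3.48 and bli-1 at 3.42. Of 6 intestinal genes 2 rose (33.3%) and 1 fell (16.7%), with a median of 0.08. Of 4 glial genes 2 rose (50%) and 0 fell in DESeq2, while the lowest log2 fold change was -1.19 and edgeR called 1 lower. Of 6 genes of the male soma 1 rose (33.3% of the 3 with an adjusted p). Of 2 coelomocyte genes 0 rose or fell in DESeq2, at an unadjusted p and in edgeR. The part of these other tissues in the values of the flp and nlp genes was not tested.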

How the data were processed

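RNA from whole adults of the eggd-1 mutant and the control (2 libraries each) had been depleted of ribosomal RNA with RNase H, enriched above 200 nucleotides and made into directional paired-end libraries. TrimGalore was used by the authors for trimming, STAR for alignment to WormBase WS279 and SAMtools to remove orphan mates, and they counted reads per gene by strand with featureCounts, dividing reads that map to several places. Salmon estimates for transposons were added. What was deposited is thus a table of expected counts before normalization. Among the flp and nlp genes, 1 (nlp-81) had a fractional count. Versions of these tools are not given in the sources used here. The table has 7 more columns that fit no sample, and these were not used.

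Expected counts were rounded and fitted over the whole table with DESeq2 1.42.0 in R 4.3.3 with Wald tests, unshrunken fold changes, median-of-ratios size factors, and p-values adjusted by Benjamini-Hochberg after independent filtering at 0.05. The edgeR 4.0.16 quasi-likelihood test was an alternative, as were other size factors and filters, a replicate block and leaving out each library. Both fits were tested on simulated data. Positions and exon lengths come from the Ensembl release 115 annotation of WBcel235, and gene names from the table or the name table of the reference. Genes named with values are the 12 at most per direction with the largest change among those past 0.05 with a mean of at least 20 and no overlap of groups, the 10 with the highest count per kb of exon, and those of the role groups, with other genes added where the text says so or where a count of few genes is listed. The genes and lists (sleep, egg laying, locomotion, feeding and gut, male turning, epidermal glycine-rich, processing, dense core vesicle, breakdown, further peptides, receptors, pan-neuronal, transmitter identity and markers of other tissues) were chosen with earlier results of these data known. Lists are described by counts and medians, with no set test. The precursor sequences were not used here.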

Additional observations from a re-analysis of the deposited data

How the results depend on the processing

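The counts of rises and falls depended on the processing, and so did the sign of several smaller changes. With 22 rises and 2 falls in the main fit, edgeR gave 39 rises (14 flp and 25 nlp), pan-neuronal size factors 6 rises (0 flp and 6 nlp) and 5 falls, a test against a change of 2-fold 0 rises (0 flp and 0 nlp) and 0 falls, and the 4-fold limit 1 rise and 0 falls. Over all rows, pan-neuronal size factors gave 1917 rises and 5860 falls. Without the 5 epidermal glycine-rich genes, an alternative added after seeing the data, there was 1 fall. Leaving out 1 library gave 4 to 6 rises (0 to 1 flp and 4 to 5 nlp) and 0 to 3 falls. The median log2 fold change was 0.32 to 0.56 over those fits and 0.12 with pan-neuronal size factors, against 0.43. With the replicate number as a block there were 13 rises (5 flp and 8 nlp). The labels do not say that a number marks a shared batch, and the deviations of same-numbered libraries had a correlation of -0.07 across 9504 genes, which are not independent replicates. All 22 genes kept a positive sign in the 13 other fits. They had been selected as higher in these same libraries and some fits reuse the main estimates, so this was largely fixed in advance. The cause of these changes in count was not tested. Library totals and leaving out transposon rows left 22 rises, a low-count filter 26 and no independent filtering 19. Shrinkage kept the adjusted p-values of the main fit, so its calls could not differ.

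Several uncalled values changed sign. With pan-neuronal size factors the log2 fold change was -0.048 for flp-14, -0.01 for flp-22, -0.17 for flp-24, -0.089 for nlp-42, -0.14 for nlp-3, -0.009 for nlp-7, -0.042 for flp-1, -0.26 for flp-10, -0.082 for flp-20 and -0.27 for flp-7, after a shift of -0.32 that all genes shared. Leaving out 1 library gave -0.21 to 0.36 for flp-10, -0.13 to 0.66 for flp-20 and -0.11 to 0.18 for flp-7. With 2 libraries per group, the spread is estimated from few values, and the smallest change that could be detected was not measured.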

Other observations

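Several neuropeptide genes that no rule above selected also passed the test. The gene nlp-47, which encodes a peptide related to gonadotropin-releasing and adipokinetic hormones, had 178 and 198 normalized counts in eggd-1, against 133 and 107.9 in the control (log2 change 0.65, SE 0.27, DESeq2 adjusted p = 0.0387). The gene nlp-18 had 203 and 187 in eggd-1 and 131 and 126 in the control (0.60, SE 0.25, DESeq2 adjusted p = 0.0447), and nlp-6 had 228 and 209 in eggd-1 and 131 and 147 in the control (0.65, SE 0.25, DESeq2 adjusted p = 0.0243). None of the 3 was called with a library left out. They were named after their values were seen, as the remainder of the 22 rises.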
